A study of Mus musculus with 4 samples.

Results

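The complement cascade and the clotting cascade are chains of plasma proteases, and the liver makes most of their parts. The genes described here are 48 complement, coagulation and fibrinolysis genes, measured in the livers of female CD-1 mice after knockdown of Cux2, a homeobox transcription factor that in mouse liver is expressed mainly in females. A gene was taken by the RefSeq accession of its probe. All 48 were found on the array, and all 48 were among the 25104 genes tested.

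Each of 4 two-colour arrays carried a pool of liver RNA from mice treated with Cux2 small interfering RNA (siRNA) and a control pool from mice treated with non-specific siRNA. All animals were female CD-1 mice, an outbred stock, aged 8 weeks. Treated livers were collected 5 days after treatment, as a pool of 3 mice (day 5 replicate 1) and a pool of 2 mice (day 5 replicate 2), or 8 days after treatment, as 2 pools of 2 mice each (day 8 replicates 1 and 2). The 13 control mice are described as pools of 6 or 7 in the series text, whereas each sample label gives 6. Which control pool was on which array, and when the control mice were killed, the labels do not state. The comparisons of day 5 and of day 8 share these control mice. On both days the treated pool of replicate 1 was labelled with the dye Alexa 647 and that of replicate 2 with Alexa 555, so replicate number and dye orientation cannot be told apart. An siRNA given to a whole animal reaches whatever cells take it up, and RNA from a pooled whole liver mixes all of its cell types.

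In the classical pathway, C1q bound to a surface activates proteases that cut C4 and C2. In the lectin pathway, mannose-binding lectins and their MASP proteases do the same, and the alternative pathway, with factors B and D and properdin, amplifies the cutting of C3 that follows. Clotting starts with tissue factor and factor VII or with the contact system, runs through thrombin, and ends in fibrin, which plasmin dissolves. Hepatocytes make most of these proteins, while the C1q chains are made mainly by macrophages, in the liver by Kupffer cells.

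Values are log2 ratios of Cux2 siRNA over non-specific siRNA after loess normalization, so that 0 is no difference and -1 is a level of 50% of control. The 4 values of a gene are given in the order day 5 replicate 1, day 5 replicate 2, day 8 replicate 1, day 8 replicate 2. A gene was called when its adjusted p lay under 0.05 (limma with Benjamini-Hochberg adjustment over all 25104 genes), and only called genes are said to have risen or fallen. Cux2 itself stood at -1.91, -1.70, -1.07 and -1.20. It was low on all 4 arrays, and its mean over both days was -1.47 (SE 0.06, limma adjusted p = 0.000915), or 36.1% of control. Between 71.2% and 74.6% of 41174 probes were well above background in a channel, and 0 spots were saturated. The probes of all 48 genes were well above background in all 8 channel readings.

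Over both days, 21 of the 48 genes were called, of which 18 fell and 3 rose. Among all genes tested 31.1% were called by the same rule, 16.3% lower and 14.8% higher. The median of the 48 genes was -0.31, against 0.0033 for all genes tested. At day 5, 8 genes fell and 4 rose, where 9.42% of all genes fell and 7.38% rose, 16.8% in all. At day 8, 10 genes fell and 0 rose, where 8.05% of all genes fell and 6.27% rose, 14.3% in all; at an unadjusted p under 0.05, limma gave 2 higher genes at day 8. The remaining 26 genes were called at neither day nor over both days. Where 1 array of a day is left out, the array that remains is assumed to vary like those of the other day, which alone then give the spread. On that footing, 0 of the 48 genes were called at day 5 without day 5 replicate 2 (limma, 14 at an unadjusted p under 0.05; 0.952% of all genes were called), and 2 without day 5 replicate 1 (Cfd and Serping1; 3.35% of all genes). At day 8, 2 were called without day 8 replicate 1 (Fgl1 and Serping1; 3.11% of all genes) and 1 without day 8 replicate 2 (Fgl1; 0.546%). Over both days, 13 were called without day 5 replicate 2 and 12 without day 8 replicate 2, where the share of all genes called also fell, to 15.5% and 17.1%. With arrays centred on their median in place of loess, 0 were called over both days (limma, 7 at an unadjusted p under 0.05). Of all genes only 1.07% were then called.

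**Figure D1:**
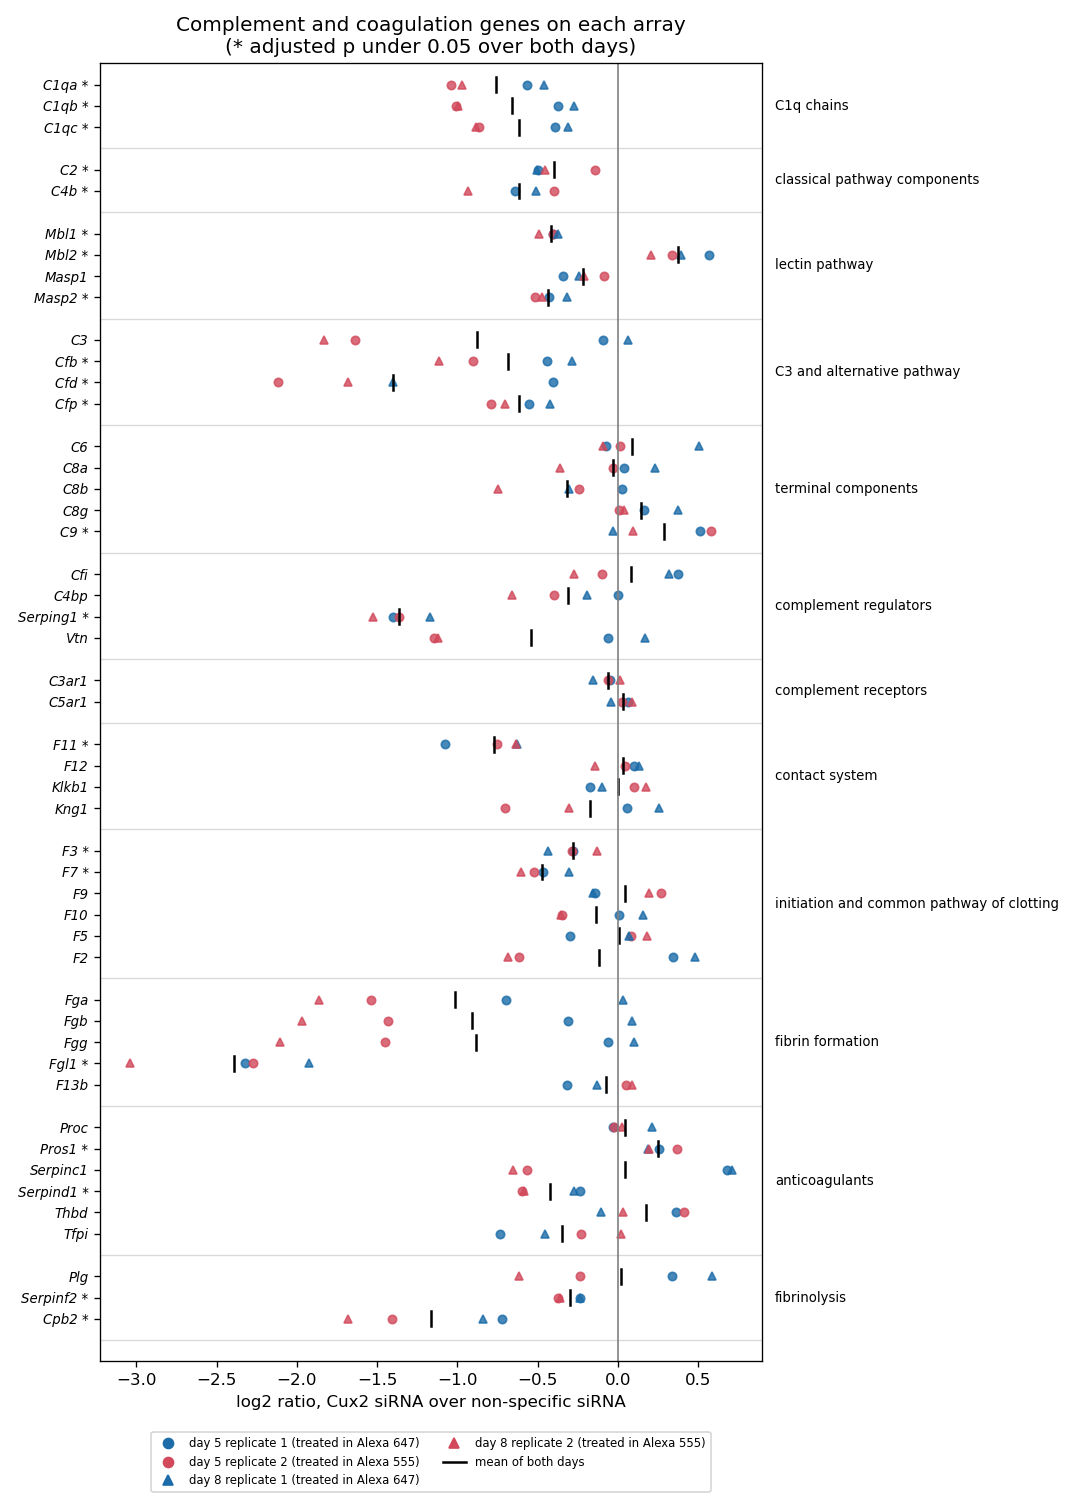
Log2 ratio of Cux2 siRNA over non-specific siRNA (horizontal axis) for each of the 48 genes, grouped by role; circles are day 5 arrays, triangles day 8 arrays, blue replicate 1, red replicate 2, and black bars the mean of both days. Fgl1 lies furthest to the left, between -1.92 and -3.04, and the fibrinogen chains and C3 have their blue points near 0 and their red points at -1.43 or lower, Fga at day 5 replicate 1 (-0.70) and Fgb at day 5 replicate 1 (-0.31) being between.

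All 3 chains of C1q, the recognition molecule of the classical pathway, fell over both days. C1qa, the A chain, stood at -0.56, -1.04, -0.46 and -0.97, C1qb at -0.37, -1.01, -0.27 and -0.99, and C1qc at -0.39, -0.86, -0.31 and -0.88. Each chain was lower than control on all 4 arrays, and each was lower on the replicate 2 arrays than on the replicate 1 arrays of both days. The means over both days were -0.76 (SE 0.12, limma adjusted p = 0.0124) for C1qa, -0.66 (SE 0.16, adjusted p = 0.0379) for C1qb and -0.61 (SE 0.13, adjusted p = 0.0252) for C1qc, or 59.2%, 63.2% and 65.4% of control. At single days the C1qa decrease at day 5 was called (-0.80, SE 0.17, limma adjusted p = 0.0424), and at day 8 its adjusted p was 0.0604. The calls of C1qb and C1qc over both days were lost without day 5 replicate 2 (limma adjusted p = 0.121 and 0.0882) and without day 8 replicate 2 (0.104 and 0.0703). Without background subtraction they were lost too (0.104 and 0.0724). C1qa kept its call without any one array, with adjusted p up to 0.0449. In whole liver, fewer macrophages and less C1q RNA per macrophage cannot be told apart.

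The C1q genes lie next to each other on chromosome 4, in the order C1qb, C1qc, C1qa. The 250 bases before the start of C1qb (chr4:136886201-136886450, minus strand) and of C1qc (chr4:136892915-136893164, minus strand) are shown because these neighbours fell together. They come from RefSeq on GRCm38.p6, which had no entry for C1qa, and capitals mark each match to a simplified binding motif of NF-kB, GGG and CC with any 5 bases between, on either strand, where overlapping matches run together.
C1qb: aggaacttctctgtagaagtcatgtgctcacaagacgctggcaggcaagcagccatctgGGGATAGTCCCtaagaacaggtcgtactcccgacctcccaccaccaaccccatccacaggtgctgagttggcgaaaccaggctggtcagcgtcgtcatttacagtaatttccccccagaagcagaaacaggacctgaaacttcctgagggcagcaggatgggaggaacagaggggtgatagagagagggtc
C1qc: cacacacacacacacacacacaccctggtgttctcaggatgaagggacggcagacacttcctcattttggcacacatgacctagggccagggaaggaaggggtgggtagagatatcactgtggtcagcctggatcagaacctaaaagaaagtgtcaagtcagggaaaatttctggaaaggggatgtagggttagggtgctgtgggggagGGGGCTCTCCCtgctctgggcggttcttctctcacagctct
Both stretches hold the motif, as do 45.8% of all 32851 promoters of the same length and 34.2% of the 38 promoters found for 36 of the 48 genes, so it is not particular to them.

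Most macrophage markers fell too. Of a list of 18 macrophage and Kupffer cell markers 16 were measured. Over both days 12 of them fell (16.3% of all genes did), 0 rose (14.8%) and 4 were not called, with a median of -0.69. The list's medians on the 4 arrays were -0.46, -0.89, -0.55 and -0.70. Its mean log2 ratios were -0.58, -1.06, -0.62 and -0.92, beside -0.44, -0.97, -0.35 and -0.95 for the mean of the C1q chains. Both series of values were lower on the replicate 2 arrays, as were the hepatocyte medians given below. Marco, a scavenger receptor, fell most (-2.84, SE 0.26), followed by Aif1 (-1.40, SE 0.07) and the protease gene Ctss (-1.19, SE 0.17), all with limma adjusted p at or under 0.00873. Vsig4, on the same list, was among those not called (-0.08, SE 0.06, limma adjusted p = 0.39). Other cell type lists also moved. Of 11 stellate cell and fibroblast markers 7 fell and 3 rose over both days, with medians of -0.51, -0.77, -0.63 and -0.18 on the 4 arrays. Of 11 exocrine pancreas markers 5 fell and 0 rose, with medians of -3.05, -4.03, 0.50 and -3.78, day 8 replicate 1 standing apart. The part of the macrophage markers, and of these other lists, in the C1q decrease was not tested.

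The 38 hepatocyte factors among the genes went in both directions. Over both days 12 fell (16.3% of all genes did), 3 rose (14.8%) and 23 were not called, with a median of -0.26. On the 4 arrays the median of the hepatocyte factors was -0.12, -0.38, 0.00 and -0.48. The C1q mean lay below it on each array, by 0.33, 0.58, 0.35 and 0.47, a mean difference of -0.43 ± 0.12 (SD, n = 4 arrays) that was given no test. That sets a mean against a median. The mean of the hepatocyte factors was -0.21, -0.48, -0.09 and -0.65, nearer to the C1q mean and still above it on each array. The C1q chains were nevertheless inside the range of the hepatocyte factors, since 7 to 9 of the 38 lay below the C1q mean on each array. Over both days these were C3, Cfb, Cpb2, F11, Fga, Fgb, Fgg, Fgl1 and Serping1. Hepatocyte markers outside the cascades differed between replicates: the median of 17 measured was 0.25 and 0.40 on the replicate 1 arrays, and -0.27 and -0.24 on the replicate 2 arrays. Over both days 4 of these 17 rose and 3 fell.

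**Figure D2:**
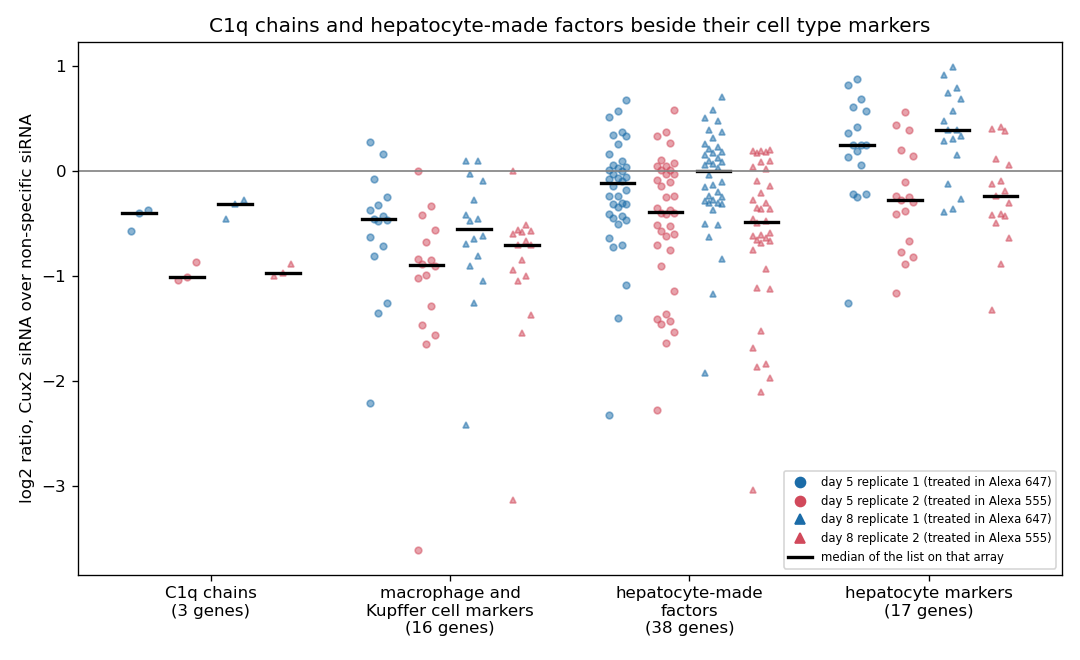
Log2 ratio of Cux2 siRNA over non-specific siRNA on each of the 4 arrays for the macrophage-made C1q chains and the 38 hepatocyte factors, with the macrophage and hepatocyte markers alongside; points are genes and bars are medians. The C1q median (-0.39, -1.01, -0.31 and -0.97) lies below the hepatocyte factor median (-0.12, -0.38, 0.00 and -0.48) on every array.

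Downstream of C1q, both classical pathway genes fell. C4b, which encodes complement C4, stood at -0.64, -0.40, -0.51 and -0.93, with a mean of -0.62 (SE 0.09, limma adjusted p = 0.0098) over both days and -0.72 (SE 0.13, adjusted p = 0.031) at day 8. C2, the protease that C4b holds, stood at -0.50, -0.14, -0.50 and -0.45, with a mean of -0.40 (SE 0.07, limma adjusted p = 0.0179) and -0.48 (SE 0.10, adjusted p = 0.0474) at day 8. Both were below control on all 4 arrays, although C2 was close to it on day 5 replicate 2. C4b has a near-identical neighbour, C4a, whose RNA its probe may also bind. C4b kept its call over both days without any one array, whereas C2 lost it without day 5 replicate 1 (adjusted p = 0.0522), day 8 replicate 1 (0.064) or day 8 replicate 2 (0.0638), all by limma.

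In the lectin pathway the 2 mannose-binding lectins, which recognize sugars on microbes, went opposite ways. Mbl1 stood at -0.40, -0.41, -0.37 and -0.49, and fell at day 5 (limma adjusted p = 0.0261), at day 8 (0.0255) and over both days (-0.42, SE 0.05, adjusted p = 0.00589). Mbl2 stood at 0.57, 0.34, 0.39 and 0.21, and rose at day 5 (0.45, SE 0.09, limma adjusted p = 0.0395) and over both days (0.38, SE 0.07, adjusted p = 0.016), while its day 8 value of 0.30 had an adjusted p of 0.107. All 4 values were below 0 for Mbl1 and above 0 for Mbl2. Over both days Mbl2 lost its call without day 5 replicate 1 (limma adjusted p = 0.0655) or day 8 replicate 1 (0.0609), and Mbl1 kept it in each case.

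Masp2 is the gene of the lectin pathway protease that cuts C4 and C2. On its brightest probe it fell at day 5 (limma adjusted p = 0.0222), at day 8 (0.0371) and over both days (-0.43, SE 0.05, adjusted p = 0.00655). Its values were -0.43, -0.51, -0.31 and -0.47, below control on all 4 arrays. The gene also gives a short product without the protease domain, and its 3 probes did not move together. Which product each probe reads was not determined, so a decrease of the protease RNA is not shown. A second probe of the same RefSeq transcript read -0.29, -0.42, -0.12 and -0.35, with a mean of -0.30 (SE 0.06). The third probe, matched to another transcript of the gene, read 0.49, 0.45, 0.19 and 1.00, with a mean of 0.53 (SE 0.14, limma adjusted p = 0.0431 over 31776 probes). With the 3 probes averaged, Masp2 was at -0.07 over both days and not called (limma adjusted p = 0.395). Masp1, whose protease activates Masp2, was not called on its brighter probe (-0.34, -0.09, -0.24 and -0.21, mean -0.22, SE 0.06, limma adjusted p = 0.0549). Its other probe read -0.51, -0.56, -0.42 and -0.62, with a mean of -0.53 (SE 0.06, limma adjusted p = 0.00429 over all probes).

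C3, the protein on which all 3 activation routes meet, read differently by replicate and by probe. Its brighter probe stood at -0.09, -1.64, 0.06 and -1.83, near control on both replicate 1 arrays and far below it on both replicate 2 arrays. The mean of -0.87 (SE 0.40) was not called (limma adjusted p = 0.169). The dimmer probe of the same transcript read -1.06, -0.86, -0.73 and -0.67, low on all 4 arrays, with a mean of -0.83 (SE 0.06, limma adjusted p = 0.00178 over 31776 probes). The means of the probes were alike, while their spreads between arrays differed. The 250 bases before the start of C3 (chr17:57228137-57228386, minus strand, RefSeq on GRCm38.p6) are shown because the gene's RNA is a known target of inflammatory factors. Capitals mark the match to TTNNGNAAT, a simplified C/EBP motif, 45 bases before the start, and the matches to the NF-kB motif.
C3: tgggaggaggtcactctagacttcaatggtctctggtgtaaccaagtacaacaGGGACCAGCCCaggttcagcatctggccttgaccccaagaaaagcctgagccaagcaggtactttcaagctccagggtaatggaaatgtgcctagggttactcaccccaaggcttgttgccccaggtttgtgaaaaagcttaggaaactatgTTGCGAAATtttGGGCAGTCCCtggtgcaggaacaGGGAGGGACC
TTNNGNAAT was found in 10.2% of all promoters and in 13.2% of those of the 48 genes (C3, C6, C9, F13b and Klkb1), of which C9 rose and the others were not called.

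Of the alternative pathway genes, Cfb, Cfd and Cfp fell over both days. Cfb, the protease partner of C3b, stood at -0.44, -0.90, -0.28 and -1.12 (mean -0.69, SE 0.16, limma adjusted p = 0.0335). It was below control on all 4 arrays and lower on the replicate 2 arrays. Cfp encodes properdin, which stabilizes the C3-cutting enzyme and is made mainly by leukocytes. It stood at -0.55, -0.79, -0.42 and -0.70 (mean -0.62, SE 0.07, limma adjusted p = 0.00617) and was also called at day 5 (adjusted p = 0.0213) and day 8 (0.0347). Cfd, the protease that cuts factor B and a product of fat cells, stood at -0.40, -2.12, -1.40 and -1.68 (mean -1.40, SE 0.28, limma adjusted p = 0.0231). Its size depended on the background correction, at -0.74 with none and -1.80 in the scanner software's processed signals, and its call was lost with none (limma adjusted p = 0.0788).

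Fat cell markers were measured beside Cfd. Of 6 such markers 5 were measured. Over both days 2 of them fell (16.3% of all genes did), 0 rose (14.8%) and 3 were not called. The 2 were Fabp4 (-0.54, SE 0.08) and Adipoq (-0.45, SE 0.06), both with limma adjusted p at or under 0.00932. The list's median on the 4 arrays was -0.34, -0.33, -0.39 and -0.31. The part of these markers in the Cfd decrease was not tested. Leaving out single arrays, Cfb lost its call over both days without day 5 replicate 1 (limma adjusted p = 0.0548), day 5 replicate 2 (0.12) or day 8 replicate 2 (0.0647), and Cfd without day 8 replicate 1 (0.0583) or day 8 replicate 2 (0.0817). Cfp kept its call in each case. Of 9 neutrophil markers measured beside Cfp, 6 fell and 0 rose over both days (16.3% and 14.8% of all genes did), with a median of -0.56. The part of these markers in the Cfp decrease was not tested.

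Among 5 genes of the terminal pathway, whose proteins form the membrane attack complex, 1 was called. C9, the component that polymerizes into the pore, stood at 0.51, 0.58, -0.03 and 0.10. Both day 5 arrays were above both day 8 arrays. C9 rose at day 5 (0.55, SE 0.07, limma adjusted p = 0.0152) and over both days (0.29, SE 0.05, adjusted p = 0.016), and stood at 0.03 (adjusted p = 0.811) at day 8. The difference between the days was -0.52 (SE 0.10), with a limma adjusted p of 0.9998. C6 (0.09), C8a (-0.03), C8b (-0.32, limma adjusted p = 0.065) and C8g (0.15) were not called over both days, and single values ranged from -0.75 for C8b to 0.51 for C6, both at day 8. Over both days C9 lost its call without day 5 replicate 1 (limma adjusted p = 0.0608), day 5 replicate 2 (0.0847) or day 8 replicate 2 (0.0776).

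Of 4 complement regulators, Serping1 fell and the others were not called. Serping1 encodes the C1 inhibitor, which blocks C1r, C1s and the MASP proteases and, in the contact system, factor XIIa and plasma kallikrein. It stood at -1.40, -1.36, -1.17 and -1.52, low on all 4 arrays with little spread. Its decrease was called at day 5 (-1.38, SE 0.10, limma adjusted p = 0.00598), at day 8 (-1.35, SE 0.10, adjusted p = 0.00719) and over both days (-1.36, SE 0.07, adjusted p = 0.00134), where it stood at 38.9% of control. Without any one array its adjusted p over both days was at most 0.00863.

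Vtn encodes vitronectin, which keeps the terminal complex from inserting into membranes. It stood at -0.06, -1.14, 0.17 and -1.12 (mean -0.54, SE 0.28, limma adjusted p = 0.212), so that both replicate 2 arrays were low and both replicate 1 arrays were near control. C4bp, a cofactor in the breakdown of C4b, had a mean of -0.31 (limma adjusted p = 0.0935), and Cfi, the protease that degrades C3b and C4b, one of 0.08 (adjusted p = 0.699). The complement receptors C3ar1 (-0.06) and C5ar1 (0.03), which leukocytes carry for the fragments C3a and C5a, lay between -0.15 and 0.09 on all arrays and were not called. Their probes were the dimmest of the genes described here, and their means depended on the background correction. Without an offset in it the means were -0.11 and 0.09, and with no background subtraction -0.02 and 0.01, not called in either. Differences in these receptors may therefore be understated.

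In the contact system 1 of 4 genes was called. F11, which encodes factor XI, stood at -1.08, -0.75, -0.63 and -0.64, below control on all 4 arrays. It fell at day 5 (-0.92, SE 0.10, limma adjusted p = 0.0103), at day 8 (-0.63, SE 0.10, adjusted p = 0.0233) and over both days (-0.77, SE 0.07, adjusted p = 0.00322), to 58.5% of control, and it kept the call over both days without any one array (adjusted p up to 0.0173). Klkb1, the plasma prekallikrein gene, is the neighbour of F11 on chromosome 8 and stood at -0.17, 0.10, -0.10 and 0.17, with a mean of 0.00 (SE 0.08, limma adjusted p = 0.996). F11 thus lay below its neighbour on each of the 4 arrays. F12, which encodes factor XII, had a mean of 0.03. Kng1, the kininogen gene, had a mean of -0.17 on its brighter probe (SE 0.16) and of -0.26 on the other (SE 0.05, limma adjusted p = 0.0173 over all probes).

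At the start of clotting, F7 and F3 fell. F7, which encodes factor VII, stood at -0.47, -0.52, -0.31 and -0.60, below control on all 4 arrays. It was called at day 5 (limma adjusted p = 0.033), at day 8 (0.0431) and over both days (-0.47, SE 0.07, adjusted p = 0.00896), and without any one array over both days (adjusted p up to 0.0465). F10, the factor X gene next to it on chromosome 8, stood at 0.01, -0.35, 0.16 and -0.35 and was not called (-0.13, limma adjusted p = 0.425). F3 encodes tissue factor, the cell surface receptor of factor VII, and was not counted among the 38 hepatocyte factors. It stood at -0.28, -0.29, -0.44 and -0.13 (mean -0.28, SE 0.07, limma adjusted p = 0.0365), and a second probe gave -0.31 (SE 0.05). Its call was lost without day 5 replicate 1 (0.118), day 5 replicate 2 (0.131) or day 8 replicate 1 (0.109).

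F9, F5 and F2 were not called. F9, the factor IX gene, had a mean of 0.04 and F5, the gene of the cofactor factor V, one of 0.01. F2 encodes prothrombin and stood at 0.35, -0.62, 0.48 and -0.69, above control on both replicate 1 arrays and below it on both replicate 2 arrays (mean -0.12, SE 0.25, limma adjusted p = 0.765).

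Fgl1 had the largest decrease among the 48 genes. It encodes fibrinogen-like protein 1, a protein secreted by hepatocytes that resembles fibrinogen and does not form clots. Fgl1 stood at -2.32, -2.27, -1.92 and -3.04, far below control on all 4 arrays. It fell at day 5 (-2.30, SE 0.26, limma adjusted p = 0.0116), at day 8 (-2.48, SE 0.26, adjusted p = 0.0113) and over both days (-2.39, SE 0.19, adjusted p = 0.00244), to 19.1% of control. Without any one array its adjusted p over both days was at most 0.0128. Fgl1 is also one of 27 acute phase genes measured for comparison. Over both days 23 of them fell (16.3% of all genes did) and 0 rose (14.8%), with a median of -1.36. Saa1 was lowest (-4.39, SE 0.39, limma adjusted p = 0.00319).

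The 3 chains of fibrinogen, the precursor of fibrin, differed from Fgl1. Fga stood at -0.70, -1.54, 0.03 and -1.86 (mean -1.02, SE 0.34, limma adjusted p = 0.0832). Fgb stood at -0.31, -1.43, 0.09 and -1.97 (mean -0.91, SE 0.38, adjusted p = 0.144), and Fgg at -0.06, -1.45, 0.10 and -2.10 (mean -0.88, SE 0.42, adjusted p = 0.188), both by limma. In each chain both replicate 2 arrays were below both replicate 1 arrays, day 8 replicate 1 was at control, and no chain was called at either day or over both. Within replicate 2 alone the means were -1.70 for Fga, -1.70 for Fgb and -1.78 for Fgg, each with limma adjusted p at or under 0.004, and within replicate 1 alone -0.33, -0.11 and 0.02, each with adjusted p at or above 0.237. In a fit of 1 replicate number, the effects of dye and treatment cannot be told apart. Without day 8 replicate 1, all 3 chains were called (limma adjusted p = 0.0146, 0.0266 and 0.0399). F13b, which carries the fibrin cross-linking enzyme, was not called (-0.07).

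The fibrinogen genes are neighbours on chromosome 3, in the order Fgg, Fga, Fgb. The 3 chains had the same order of values over the arrays. Shown are the 250 bases before the start of Fga (chr3:83025903-83026152, plus strand) and of Fgb (chr3:83049864-83050113, minus strand), from RefSeq on GRCm38.p6. Capitals mark the match to TTCNNNGAA, a simplified STAT motif, searched on both strands. The stretch before Fgg, which is not shown, held no match to it and matched the NF-kB motif.
Fga: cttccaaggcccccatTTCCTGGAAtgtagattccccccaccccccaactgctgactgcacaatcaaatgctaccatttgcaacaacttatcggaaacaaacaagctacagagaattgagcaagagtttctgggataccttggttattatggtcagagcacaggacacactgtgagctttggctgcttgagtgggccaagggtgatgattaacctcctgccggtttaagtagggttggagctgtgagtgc
Fgb: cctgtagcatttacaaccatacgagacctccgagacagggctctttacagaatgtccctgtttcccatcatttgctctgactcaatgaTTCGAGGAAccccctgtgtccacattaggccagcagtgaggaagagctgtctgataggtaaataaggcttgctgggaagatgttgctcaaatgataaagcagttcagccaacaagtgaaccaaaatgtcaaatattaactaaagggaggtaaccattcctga
The match lies 234 bases before the start of Fga and 162 before that of Fgb. It was found in 7.02% of all promoters and in 15.8% of those of the 48 genes (C8a, F9, Fga, Fgb, Masp2 and Pros1). Of these, Masp2 fell and Pros1 rose on their brightest probes, and the others were not called. The promoters of the 48 genes held 0 matches to an interferon-stimulated element (GAAA, any 2 bases, GAAA) found in 2.98% of all promoters, and 0 to an HNF1 motif (GTTAAT, any 2 bases, TTAAC) found in 0.0335%.

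Anticoagulant genes showed small differences in both directions. Pros1 encodes protein S, the cofactor of activated protein C. It stood at 0.26, 0.37, 0.19 and 0.19, above control on all 4 arrays, and rose at day 5 (0.31, SE 0.07, limma adjusted p = 0.0453) and over both days (0.25, SE 0.05, adjusted p = 0.0208). A second, dimmer probe of Pros1 read 0.16, 0.24, 0.15 and 0.11 and was not called at day 5 (0.20, limma adjusted p = 0.11 over all probes) or over both days (0.17, adjusted p = 0.0561). Thbd encodes thrombomodulin, the endothelial receptor that turns thrombin towards protein C. It stood at 0.37, 0.41, -0.10 and 0.03, higher at day 5 than at day 8, and rose at day 5 (0.39, SE 0.07, limma adjusted p = 0.0308) but was not called over both days (0.18, adjusted p = 0.0582). The difference between its days was -0.43 (SE 0.10, limma adjusted p = 0.9998). Serpind1, the heparin cofactor II gene, stood at -0.23, -0.59, -0.28 and -0.58 and fell over both days (-0.42, SE 0.09, limma adjusted p = 0.0258).

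Serpinc1, Proc and Tfpi were not called. Serpinc1 encodes antithrombin, the main inhibitor of thrombin, and stood at 0.68, -0.56, 0.71 and -0.66 (mean 0.04, SE 0.30). The replicates lay on opposite sides of control. A dimmer probe of the gene read 0.02, -0.03, 0.07 and -0.06, at control on all 4 arrays. Tfpi, the tissue factor pathway inhibitor gene, had a mean of -0.35 (limma adjusted p = 0.0917) and Proc, the protein C gene, one of 0.05. Of 14 endothelial markers, measured beside Thbd and Tfpi, 3 rose and 4 fell over both days (14.8% and 16.3% of all genes did), with a median of -0.08. At day 5, 0 of these markers rose and 2 fell (7.38% and 9.42% of all genes), and their part was not tested. Leaving out any one array ended the call of Pros1 over both days (limma adjusted p = 0.0643 to 0.111), and that of Serpind1 was lost without day 5 replicate 2 (0.0924) or day 8 replicate 2 (0.0945).

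Of 3 fibrinolysis genes, Cpb2 and Serpinf2 fell and Plg was not called. Cpb2 encodes TAFI, a carboxypeptidase that removes plasmin's binding sites from fibrin, and stood at -0.72, -1.41, -0.84 and -1.68. All 4 arrays were below control, the replicate 2 arrays further. Its decrease was called at day 8 (-1.26, SE 0.26, limma adjusted p = 0.0415) and over both days (-1.16, SE 0.18, adjusted p = 0.0117), to 44.7% of control, and had an adjusted p of 0.0554 at day 5. Serpinf2, the gene of the plasmin inhibitor alpha-2-antiplasmin, stood at -0.23, -0.37, -0.24 and -0.36 and fell over both days (-0.30, SE 0.05, limma adjusted p = 0.0173). Plg, the plasminogen gene, stood at 0.34, -0.24, 0.59 and -0.62, above control in replicate 1 and below it in replicate 2, and was not called (0.02, SE 0.22). Cpb2 kept its call over both days without any one array. Serpinf2 lost it without day 5 replicate 1 (limma adjusted p = 0.0504), day 5 replicate 2 (0.0892) or day 8 replicate 2 (0.0811).

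No gene of the array was called for a difference between day 8 and day 5 (0 of 25104, or 0%, by limma; 621 genes, or 2.47%, at an unadjusted p under 0.05). Among the 48 genes, C9 and Thbd had an unadjusted p under 0.05. The 7 genes called at each day singly were Mbl1, Masp2, Cfp, Serping1, F11, F7 and Fgl1, all lower, Masp2 on its brightest probe.

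Brightness of the spots moved with the split between replicates. The 12 genes with the brightest probes were all higher in replicate 1 than in replicate 2, with a median gap of 0.98 and a range of 0.21 to 1.80. Of the other 36 genes 22 were higher in replicate 1 and 14 in replicate 2. The median size of their gap, its sign dropped, was 0.25, against 0.11 for all genes tested. Over the 48 genes the signed gap (replicate 1 minus replicate 2) and the mean spot brightness had a Pearson r of 0.48 and a Spearman rho of 0.62, as a description, since the genes share the same 4 arrays. For 15 genes the replicate means lay on opposite sides of 0, among them Fgg, Vtn, F2, Plg and Serpinc1. The dimmer probe of C3 did not show the split, that of Serpinc1 showed it within 0.07 of 0, and both probes of Plg showed it (0.15, -0.14, 0.42 and -0.42 on the dimmer one). The part of dye and of brightness in these values was not tested.

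**Figure D3:**
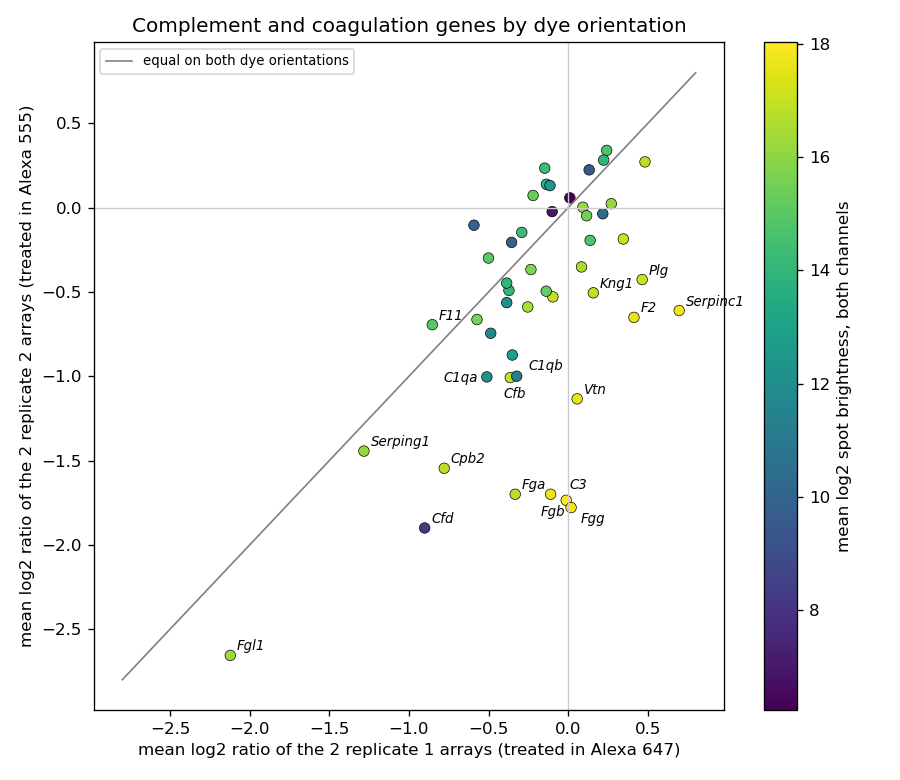
Mean log2 ratio of the replicate 1 arrays (horizontal, treated pool in Alexa 647) against that of the replicate 2 arrays (vertical, treated pool in Alexa 555) for the 48 genes, coloured by mean log2 spot brightness; the line marks equal values. The brightest probes, such as C3 (-0.01 and -1.74), Fgg (0.02 and -1.78) and Serpinc1 (0.70 and -0.61), lie well below the line.

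Within replicate 1 alone, 5 of the 48 genes rose and 19 fell over both days, and within replicate 2 alone 2 rose and 27 fell, with limma adjusted p under 0.05 in each. Of all genes, 12.7% rose and 14.6% fell within replicate 1, and 15.1% and 17.4% within replicate 2. Within each replicate, F2 and Plg were called in opposite directions: F2 at 0.41 (limma adjusted p = 0.0154) and -0.65 (0.00433), and Plg at 0.46 (0.0187) and -0.43 (0.045). Serpinc1 likewise stood at 0.70 (limma adjusted p = 0.00321) and -0.61 (0.00515). The C1q chains, C4b, Mbl1, Masp2, Cfb, Cfd, Cfp, Serping1, F11, F7, Fgl1, Serpind1 and Cpb2 were lower and called within each replicate, Masp2 on its brightest probe.

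**Figure D4:**
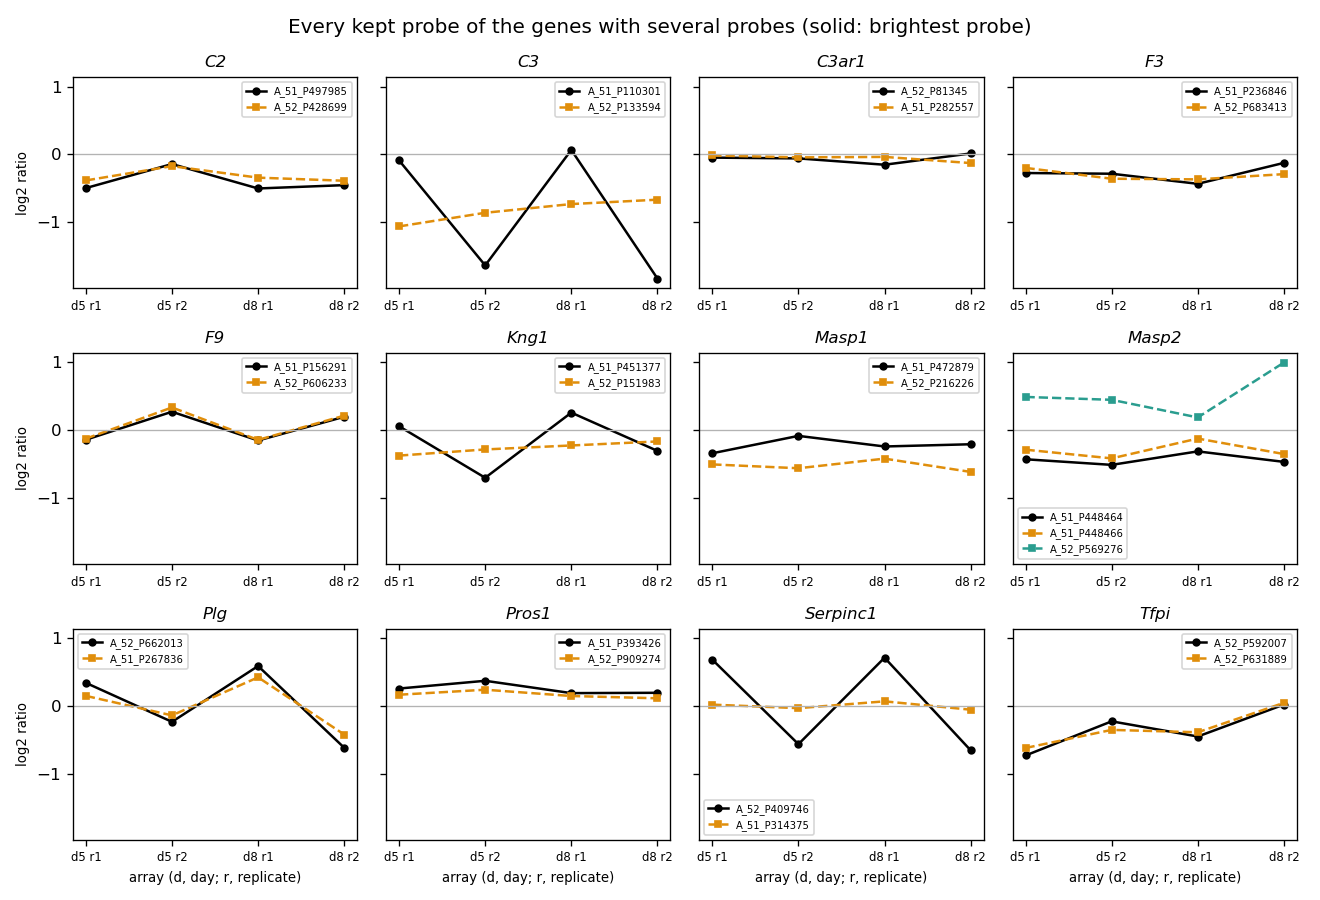
Log2 ratio of Cux2 siRNA over non-specific siRNA on each of the 4 arrays for the 12 genes with more than 1 kept probe, solid for the brightest; lines only join the points of a probe. The brighter probe of C3 falls to -1.83 on the replicate 2 arrays while the dimmer one stays between -1.06 and -0.67, and the third probe of Masp2 (0.19 to 1.00) lies above its other probes.

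Other complement genes were taken from a list of 33, of which 29 were measured. Over both days 4 rose (14.8% of all genes did) and 14 fell (16.3%). Among the rises were Colec10 (1.78, SE 0.11), a collectin of the lectin pathway, Fcna (0.84, SE 0.07), a ficolin of the same pathway made by macrophages, and C1qbp (0.36, SE 0.05), a binding protein of C1q. Colec10 stood at 1.72, 1.93, 1.45 and 2.02, high on all 4 arrays. The largest falls were Apcs (-1.47, SE 0.09), which encodes serum amyloid P, and the integrin genes Itgax (-1.22, SE 0.08) and Itgb2 (-0.84, SE 0.06), whose products are leukocyte receptors for C3 fragments.

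Of 28 other coagulation and fibrinolysis genes 26 were measured. Over both days 2 rose and 11 fell, where 14.8% of all genes rose and 16.3% fell. Serpine2, a thrombin inhibitor, rose (0.34, SE 0.06), as did Vwf, the von Willebrand factor gene (0.24, SE 0.06). Among the falls were F13a1 (-1.32, SE 0.14), the enzyme subunit of factor XIII and a product of macrophages and platelets, and Serpina10 (-1.19, SE 0.10), an inhibitor of activated factor X. Of 9 platelet and megakaryocyte markers measured, 0 were called by limma. Of 8 genes for vitamin K use and secretion of clotting factors 0 rose and 2 fell: Furin (-0.41, SE 0.07), a protease that trims proproteins, and Ggcx (-0.39, SE 0.06), the carboxylase that clotting factors depend on. Of the genes among the 48 whose products that enzyme modifies, F7 fell, Pros1 rose, and F2, F9, F10 and Proc were not called.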

How the data were processed

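Per the labels' protocols, Trizol-extracted RNA was amplified once and dye-coupled. The file headers name Agilent Feature Extraction (10.7.1.1) as the scanner software. From the deposited intensity columns, median spot and local background signals were used. The deposited processed intensity values, background-subtracted and dye-normalized by that software per the file headers, served as an alternative, as did the authors' deposited table of log10 ratios, turned to log2 here. The deposited scanner p-values entered no test.

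With limma 3.58.1 under R 4.3.3, normexp (offset 50) corrected the background, ratios were normalized by loess within arrays with 1639 control spots at weight 0, and outlier spots were left out. The design had named spot signals without saying mean or median; medians were used. Probes were named by RefSeq accession in a GRCm38.p6 gene table (23374 of 41174, or 56.8%). A probe was kept when at least 2 of its 8 channel readings were well above background (31776 probes), and the brightest kept probe stood for a gene. One fit over 4 arrays (2 residual degrees of freedom, 2.77 from the prior) estimated both days, their mean and their difference. All arrays lie on 1 slide. Scripts were tested on simulated data. Promoters were the 250 bases before a RefSeq start; 12 of the 48 genes had no entry. The array design names another build, so no probe coordinates are given.

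The genes, lists and rules were chosen with earlier results of these data known. Array values were printed for each gene called and for the C1q, mannose-binding lectin and fibrinogen genes; from other pathway lists, the 3 largest calls each way, or all where a list had 6 or fewer, except items that are not reported here. Pools stand for animals, so p-values measure the spread between pools, which may be technical, and the number of arrays limits precision. The main fit took the arrays as independent, although the days share control mice and same-numbered arrays share a dye orientation. Deviations of same-numbered arrays had a correlation of 0.5 over all genes. The p-values over both days did not take that correlation into account and may be too small. Alternatives were other background corrections, normalizations, signals, filters and probes, a replicate term, and leaving out each array.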

Additional observations from a re-analysis of the deposited data

Results flagged for a closer look

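Proc, the protein C gene, stood below control on both day 5 arrays (-0.03 and -0.02) and above it on both day 8 arrays (0.21 and 0.03). The difference, day 8 minus day 5, was 0.15 (SE 0.11). It was picked out only because all arrays of a day lay on 1 side of 0; in the limma fit it had an adjusted p of 0.9998, and neither day was called. No group held 4 or more arrays, so no single array was checked for standing apart.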

How the results depend on the processing

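Counts below are of the 48 genes called by limma. With median centring of arrays in place of loess, 0 were called at day 5, 0 at day 8 and 0 over both days (4, 3 and 7 at an unadjusted p under 0.05), and 87 of all genes rose and 182 fell over both days. The scanner's processed signals gave 4 at day 5 and 3 at day 8 (8.08% and 5.88% of all genes were called). The authors' table also gave 4 and 3 (8.03% and 5.85%), and normexp without an offset 5 and 2 (10.2% and 8.22%). No background subtraction gave 4 at day 8 (8.39%). In the main fit 16.8% of all genes were called at day 5 and 14.3% at day 8. With replicate number as a block, 28 were called at day 5 (4 rose, 24 fell), 25 at day 8 and 32 over both days, while 32.8%, 29.7% and 44.8% of all genes were called. The 11 added over both days were C3 (limma adjusted p = 0.000735), Vtn (0.00151), Fga (0.00409), Fgb (0.0042), Fgg (0.00322), Masp1, C8b, C4bp, Kng1, Thbd and Tfpi. The number names separate pools and is also the dye orientation, so it does not pair animals; deviations of same-numbered arrays had a correlation of 0.5. Leaving out single arrays gave 0 to 14 calls at day 5, 1 to 8 at day 8, 12 to 20 over both days, and 0 for the difference between days, which stayed at 0 in all settings run (0 to 6 at an unadjusted p under 0.05). Leaving out any one array also lowered the share of all genes called, at day 5, at day 8 and over both days. Over both days, no background subtraction ended the calls of C1qb, C1qc, C2, Cfb, Cfd, F3 and Serpind1 (limma adjusted p = 0.0662 to 0.104), the processed signals those of C1qb, C1qc, C2, Mbl2 and F3 (up to 0.0766), and normexp without an offset those of C1qb, F3 and Pros1 (up to 0.0695). The C1q mean minus the hepatocyte factor median lay between -0.53 and -0.34 in all settings. Chosen after seeing the data were the dimmest probe and single replicate numbers: within 1 replicate, F2 turned to 0.41, Serpinc1 to -0.61 and Plg to -0.43. C1qa, C4b, Mbl1, Cfp, Serping1, F11, F7, Fgl1 and Cpb2 kept their calls over both days in every setting but median centring. Causes of these shifts were not tested.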
